A study of Mus musculus with 7 samples.

Results

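Creatine kinase and the enzymes that buffer adenine nucleotides were examined as a family of 8 genes in tibialis anterior (TA) muscle, a fast-twitch muscle of the lower leg. The genes were chosen by symbol: *Ckm*, *Ckmt2* and *Ckb* encode creatine kinases, *Ak1* and *Ak5* adenylate kinases, *Ampd1* and *Ampd3* AMP deaminases, and *Adssl1* the muscle form of adenylosuccinate synthetase. All 8 were among the 12239 genes analysed. RNA was sequenced from 4 wild-type (WT) and 3 *Mybpc2* knockout (C2-/-) libraries. Both groups were male FVBN mice aged 5 to 6 months on a standard diet. In C2-/- mice, exons 2 to 22 of *Mybpc2*, the gene of fast skeletal myosin-binding protein C, are replaced by a neomycin-resistance cassette between LoxP sites, and no Cre driver is named for either group. The design text states 4 animals per group, but 3 C2-/- libraries are analysed here.

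A contracting fast fibre spends ATP faster than mitochondria or glycolysis can replace it. Creatine kinase bridges the gap by moving phosphate from phosphocreatine to ADP, with the mitochondrial form at the site of ATP supply and the cytosolic form near the myofibrils. Adenylate kinase makes ATP and AMP from a pair of ADP molecules. AMP deaminase then converts AMP to IMP, and adenylosuccinate synthetase and adenylosuccinate lyase return IMP to AMP, which closes the purine nucleotide cycle.

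Values below are log2 CPM, the log2 of reads per 1e+06 reads once the libraries had been scaled by TMM (trimmed mean of M values). A change is the C2-/- mean less the WT mean, given with its standard error (SE) from limma. A gene was past the threshold with a fold change above 1.5 (0.585 on the log2 scale) and an adjusted p under 0.05 by limma, adjusted over all genes by the Benjamini-Hochberg method. *Mybpc2* was read first as a check of the genotypes. It was 12.68, 12.85, 12.41 and 12.51 in WT replicates 1 to 4 and 1.16, 1.67 and -0.47 in C2-/- replicates 1 to 3 (6, 8 and 3 reads), so every library carried the level of its label. The depth was unequal, since WT replicates 1 to 3 held 14929214 to 15464499 reads, whereas WT replicate 4 held 4683853 and the C2-/- libraries held 2613277 to 4917936. A count of 3 reads corresponded to 0.195 to 0.683 CPM in WT and 0.621 to 1.12 CPM in C2-/-. Over all genes, the log2 change fell with the GC content of the transcript (Spearman's rho -0.69 over 12178 genes, a description, because genes are not replicates). The change of each of the 8 genes is therefore also given after a GC correction, in which the part of each library's log2 values that followed GC content was replaced by the mean curve of the 7 libraries. The median change of all genes was -0.14 before and 0.01 after that correction, and 0.02 when each library was centred on its median. The p-values measure only the spread between these libraries, which may be technical in part.

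The muscle enzymes split into an abundant and a scarce group. Per kb of transcript, *Ckm* was the most abundant of the 8 in WT, at a mean level of 13.91 log2 CPM per kb, and ranked 3 of 12178 genes, with a length of 1415 bases inside the RefSeq gene (the annotated GENCODE transcript, of 2742 bases, runs past it and would give a lower level per kb). *Ckmt2* (9.96), *Ak1* (9.23), *Ampd1* (9.19) and *Adssl1* (9.02) followed, on ranks 39 to 89. *Ckb* (1.41), *Ampd3* (1.36) and *Ak5* (-2.34) stood far below, on ranks 8162 to 12015. In that order, the WT libraries of *Ak1* and *Ampd1*, of *Ampd1* and *Adssl1*, and of *Ckb* and *Ampd3* overlapped, whereas the other neighbours did not. In C2-/- the order was *Ckm* (12.05, rank 16), *Ckmt2* (9.85), *Adssl1* (8.98), *Ampd1* (8.80), *Ak1* (8.16), *Ampd3* (2.39), *Ak5* (1.40) and *Ckb* (-0.47). There the libraries of *Adssl1* and *Ampd1* overlapped, and so did those of *Ak5* and *Ckb*. These levels are from the values without the GC correction.

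**Figure D1:**
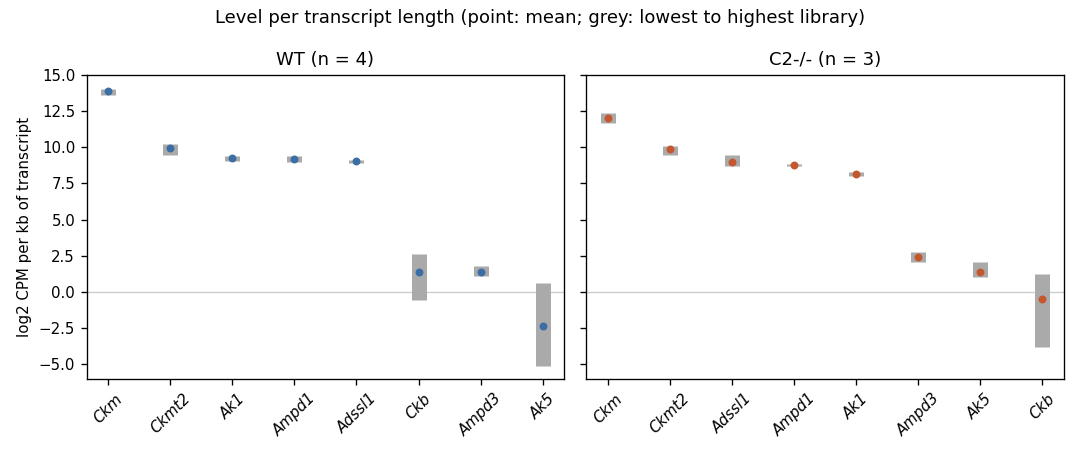
Level of the 8 genes per transcript length in WT (left, n = 4) and C2-/- (right, n = 3), in log2 CPM per kb. Points are group means and grey bars run from the lowest to the highest library. *Ckm* leads in both groups, at 13.91 and 12.05, and *Ckb*, *Ampd3* and *Ak5* form a separate low group.

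Of the 8 genes, 4 were past the threshold, 2 of them higher (*Ak5*, *Ampd3*) and 2 lower (*Ckm*, *Ak1*) in C2-/-. Over all genes, 45.2% were past it, with 20.2% higher and 25% lower, so this count is near that of all genes. The C2-/- libraries lay wholly to one side of the WT libraries in 5 of the 8 genes, compared with 49.3% of all genes. Of these 5, *Ckm*, *Ak1* and *Ampd1* were lower (26.7% of all genes) and *Ak5* and *Ampd3* were higher (22.6%). The median change of the 8 genes was -0.25. After the GC correction 4 of the 8 were again past the threshold, against 20.1% of all genes, but they were not the same 4, and with transcripts not trimmed to the RefSeq gene the count was 5, with *Ckm* among them. In the trimmed correction *Ampd3*, *Ak5* and *Adssl1* were then higher (11.9% of all genes) and *Ampd1* lower (8.18%), and the median change of the 8 was -0.03. *Ak5* and *Ampd3* were thus past the threshold in the same direction with and without either correction.

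**Figure D2:**
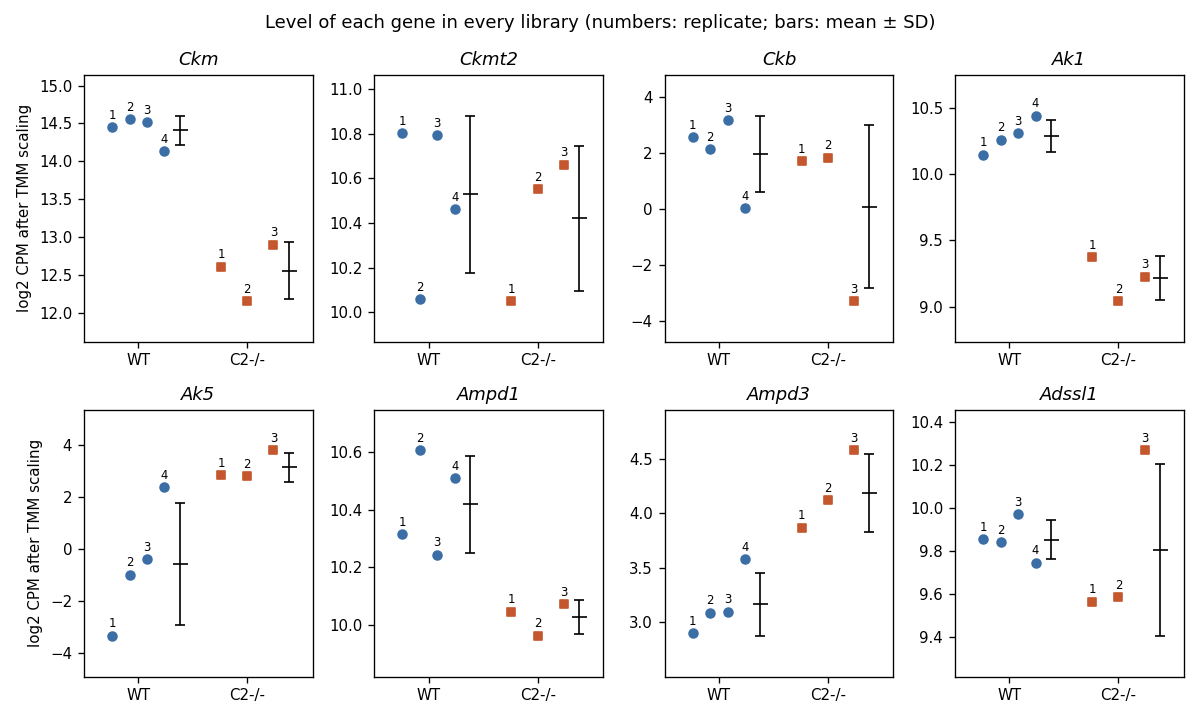
log2 CPM of each gene in every library, with WT replicates 1 to 4 as blue circles, C2-/- replicates 1 to 3 as orange squares, and the group mean ± SD in black. Each panel has its own axis, and the groups are apart in *Ckm*, *Ak1*, *Ak5*, *Ampd1* and *Ampd3* and overlap in *Ckmt2*, *Ckb* and *Adssl1*.

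*Ckm* encodes the cytosolic creatine kinase of muscle, which is bound in part at the M-band of the sarcomere. The gene lies on the plus strand at chr7:19411094-19421583 (GRCm38) and has 8 exons. *Ckm* was 14.45, 14.55, 14.51 and 14.13 in WT replicates 1 to 4 and 12.61, 12.16 and 12.90 in C2-/- replicates 1 to 3. All C2-/- libraries were below all WT libraries, and WT replicate 4 was the lowest of its group. *Ckm* took 1.68% to 2.36% of the reads of a WT library and 0.466% to 0.750% of those of a C2-/- library. The mean level was 14.41 ± 0.19 (SD, n = 4) in WT and 12.55 ± 0.37 (SD, n = 3) in C2-/-. The change was -1.86 (SE 0.27, limma adjusted p = 0.000886), or 3.62-fold lower in C2-/-. The C2-/- mean minus WT replicate 4, the WT library nearest in depth, was -1.58, without a test. Leaving out any 1 of the 7 libraries kept *Ckm* past the threshold, at -2.03 to -1.66. The *Ckm* transcript has a GC content of 60.1%, above that of 95.3% of genes, and after the GC correction the change was -0.17 (SE 0.25, limma adjusted p = 0.665), no longer past the threshold. That loss depended on the transcript used. The GENCODE transcript runs past the end of the RefSeq gene and was trimmed to it, and with the untrimmed transcript, of 54.0% GC, the corrected change was -1.02 (SE 0.25, limma adjusted p = 0.0183) and past the threshold, a setting chosen after the values were seen.

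A second limit concerns the strand. An antisense gene, *A930016O22Rik*, lies within *Ckm* on the minus strand at chr7:19417466-19421417 and shares 451 bases with the exons of *Ckm* (31.9% of them). The use of strand in counting is not given in the sources used here, so reads of the gene pair within those shared bases cannot be told apart. *A930016O22Rik* held 145543, 133258, 149531 and 23108 reads in WT replicates 1 to 4 and 3131, 1833 and 6511 in C2-/- replicates 1 to 3, next to 343039, 359768, 359065 and 78880 for *Ckm* in WT and 18172, 12186 and 36872 in C2-/-. The antisense gene was lower in every C2-/- library than in any WT library, with a change of -3.02 (SE 0.29, limma adjusted p = 0.000231) that was -2.53 after the GC correction (limma adjusted p = 0.000707). With the reads of *Ckm* and *A930016O22Rik* summed in each library, the change was -2.09 (SE 0.29, limma adjusted p = 0.000731), a setting chosen after the values were seen.

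*Ckmt2*, the mitochondrial creatine kinase of striated muscle, lies on the minus strand at chr13:91853386-91876923. It was 10.80, 10.06, 10.79 and 10.46 in WT replicates 1 to 4 and 10.05, 10.55 and 10.66 in C2-/- replicates 1 to 3. The groups overlapped throughout, and the lowest libraries of both groups stood side by side. The change was -0.11 (SE 0.23, limma adjusted p = 0.72), with a 95% interval from -0.63 to 0.41, and 0.10 after the GC correction. Changes within that interval are compatible with these values at this spread.

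*Ckb*, the brain-type cytosolic creatine kinase, lies on the minus strand at chr12:111669355-111672338 and was scarce. It was 2.56, 2.13, 3.15 and 0.03 in WT replicates 1 to 4 (90, 65, 136 and 4 reads) and 1.71, 1.83 and -3.27 in C2-/- replicates 1 to 3 (9, 9 and 0 reads). WT replicate 4 and C2-/- replicate 3 were the low libraries of their groups, and the groups overlapped. A count of 0 in C2-/- replicate 3 allows a level of up to 0.621 CPM, and such limits cover counting error only. The change was -1.88 (SE 1.22, limma adjusted p = 0.225), with a 95% interval from -4.60 to 0.84, and -0.20 after the GC correction (limma adjusted p = 0.921). It rested on C2-/- replicate 3, without which it was -0.20 too (limma adjusted p = 0.857). With library quality weights it was -2.52 and past the threshold (limma adjusted p = 0.0392).

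The bases before the start sites of *Ckm* and *Ckb* are shown because they encode the abundant and the scarce cytosolic form of the enzyme. The E-box CANNTG is the core site bound by MyoD and the other myogenic factors. It reads the same on both strands and is in capitals. The 250 bases upstream of each start are from RefSeq (GRCm38.p6), at chr7:19410844-19411093 on the plus strand for *Ckm* and chr12:111672339-111672588 on the minus strand for *Ckb*, and end next to the gene positions given above.
Ckm: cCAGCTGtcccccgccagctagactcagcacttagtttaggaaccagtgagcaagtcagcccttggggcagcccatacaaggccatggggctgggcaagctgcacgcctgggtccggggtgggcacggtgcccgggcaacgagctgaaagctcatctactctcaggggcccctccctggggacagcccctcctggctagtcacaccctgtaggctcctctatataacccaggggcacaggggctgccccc
Ckb: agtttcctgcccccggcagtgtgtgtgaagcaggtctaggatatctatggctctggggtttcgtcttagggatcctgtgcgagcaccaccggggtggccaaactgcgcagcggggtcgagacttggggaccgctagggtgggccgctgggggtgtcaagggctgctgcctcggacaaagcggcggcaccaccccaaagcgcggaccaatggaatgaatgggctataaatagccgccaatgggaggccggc
*Ckm* holds 1 E-box, 249 bases before the start, and *Ckb* has none within this window. At least 1 E-box occurs in 66.2% of 32851 RefSeq promoters of the same length, and in 58.0% of the 11928 promoters of the genes in the table. The letters TATAA lie 29 bases before the start of *Ckm* and 28 before that of *Ckb*, and 22.8% of all promoters, or 12.4% of those of the genes in the table, hold them on either strand. These matches describe the sequence and are no evidence of binding.

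The balance between the mitochondrial and the cytosolic form was then read within each library, where the scaling of the library cancels. The log2 ratio of *Ckmt2* to *Ckm* was -3.65, -4.50, -3.72 and -3.67 in WT replicates 1 to 4 and -2.56, -1.61 and -2.24 in C2-/- replicates 1 to 3. Every C2-/- library was above every WT library. The means were -3.88 ± 0.41 (SD, n = 4) and -2.13 ± 0.49 (SD, n = 3), a difference of 1.75 (two-sided exact permutation p = 0.02857, the smallest that 35 assignments allow, and 0.0429 after Benjamini-Hochberg adjustment over 3 ratios). After the GC correction the difference was 0.27 and the groups were no longer apart (exact permutation p = 0.314), whereas with the untrimmed *Ckm* transcript it was 1.14 (exact permutation p = 0.02857). With any 1 library left out, the exact permutation test cannot go below 0.0667 or 0.1. The log2 ratio of *Ckb* to *Ckm* was -12.44 ± 1.19 (SD, n = 4) in WT and -12.47 ± 3.22 (SD, n = 3) in C2-/-, a difference of -0.02 (exact permutation p = 0.971). That value rests on C2-/- replicate 3 with its 0 *Ckb* reads, and without that library the difference was 1.83 (exact permutation p = 0.133).

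**Figure D3:**
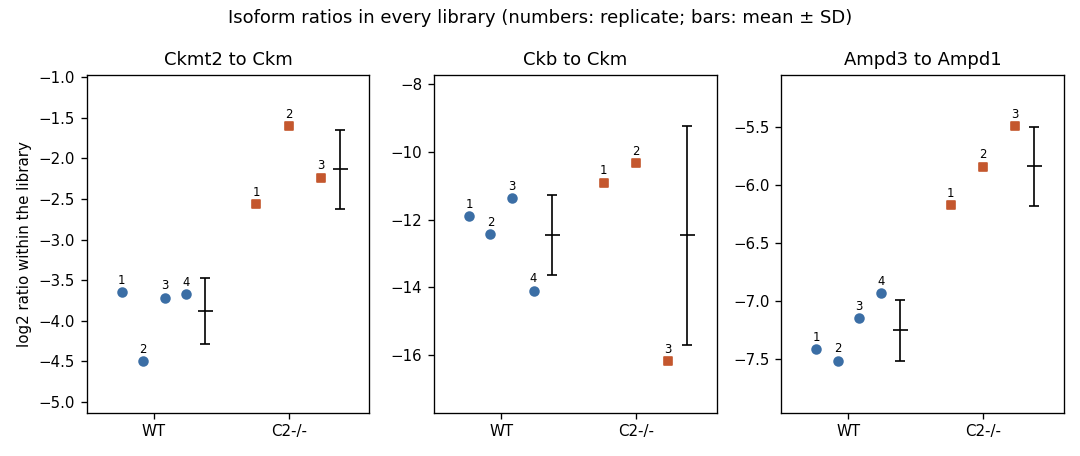
log2 ratio of *Ckmt2* to *Ckm*, *Ckb* to *Ckm* and *Ampd3* to *Ampd1* within each library, with WT as blue circles, C2-/- as orange squares and the group mean ± SD in black. The first and the last ratio are higher in all C2-/- libraries, by 1.75 and 1.42, and C2-/- replicate 3 stands low in the middle panel, where *Ckb* had 0 reads.

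Among the adenylate kinases, *Ak1*, the main cytosolic form of muscle, lies on the plus strand at chr2:32621758-32635058. It was 10.15, 10.26, 10.31 and 10.44 in WT replicates 1 to 4 and 9.37, 9.04 and 9.23 in C2-/- replicates 1 to 3. The C2-/- libraries were all lower, and WT replicate 4, the shallow WT library, was the highest of its group. The means were 10.29 ± 0.12 (SD, n = 4) and 9.22 ± 0.17 (SD, n = 3), and the change was -1.07 (SE 0.16, limma adjusted p = 0.000895), or 2.10-fold lower in C2-/-. The C2-/- mean minus WT replicate 4 was -1.23. Leaving out any 1 of the 7 libraries kept *Ak1* past the threshold as well. With a GC content of 54.4%, above that of 71.6% of genes, its change after the GC correction was -0.17 (SE 0.17, limma adjusted p = 0.51), which ended the call.

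*Ak5*, a cytosolic adenylate kinase known mainly from brain, lies on the minus strand at chr3:152462815-152668406 and was close to the detection limit in WT. It was -3.35, -0.997, -0.42 and 2.36 in WT replicates 1 to 4 (1, 7, 11 and 22 reads) and 2.82, 2.79 and 3.78 in C2-/- replicates 1 to 3 (20, 18 and 66 reads). The groups did not overlap, but WT replicate 4 stood beside the C2-/- libraries and apart from the other WT libraries. In CPM, the level was 0.0652 to 5.01 in WT and 6.74 to 13.7 in C2-/-. The change was 3.73 (SE 1.10, limma adjusted p = 0.0194) and 4.52 after the GC correction (limma adjusted p = 0.0217). Its size depended on the offset added before the log, since it was 2.27 on the log2(CPM + 1) scale, and it ranged from 2.82 without WT replicate 1 to 4.72 without WT replicate 4. The C2-/- mean minus WT replicate 4 was 0.78, without a test, and without C2-/- replicate 3 the call was lost (3.41, limma adjusted p = 0.071). *Ak5* shares 12 exon bases with *Zzz3* on the opposite strand, whose change was 0.85 (limma adjusted p = 0.0107) and 0.16 after the GC correction, no longer past the threshold (limma adjusted p = 0.661).

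*Ampd1* encodes the AMP deaminase of muscle fibres and lies on the plus strand at chr3:103073897-103099720. It was 10.32, 10.61, 10.24 and 10.51 in WT replicates 1 to 4 and 10.05, 9.96 and 10.07 in C2-/- replicates 1 to 3. Every C2-/- library was below every WT library, by a small margin. The means were 10.42 ± 0.17 (SD, n = 4) and 10.03 ± 0.06 (SD, n = 3), and the change of -0.39 (SE 0.16, limma adjusted p = 0.0669) was not past the threshold. It was past the threshold after the GC correction (-0.61, limma adjusted p = 0.0183) and with quantile normalization (-0.60, limma adjusted p = 0.0115).

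*Ampd3*, the AMP deaminase first known from red blood cells, lies on the plus strand at chr7:110767790-110812409. It was 2.90, 3.09, 3.10 and 3.58 in WT replicates 1 to 4 (114, 127, 131 and 52 reads) and 3.87, 4.12 and 4.58 in C2-/- replicates 1 to 3 (42, 46 and 115 reads). All C2-/- libraries were above all WT libraries, and WT replicate 4 was the nearest of its group to them. The means were 3.17 ± 0.29 (SD, n = 4) and 4.19 ± 0.36 (SD, n = 3). The change was 1.02 (SE 0.30, limma adjusted p = 0.0201), or 2.03-fold higher, and 1.58 after the GC correction (limma adjusted p = 0.0103). The call was lost without WT replicate 1, 2 or 3 and without C2-/- replicate 3, with changes from 0.83 to 1.001 and limma adjusted p from 0.0569 to 0.0657. *Ampd3* shares 195 exon bases (5.59%) with *Rnf141* on the opposite strand, whose change was -1.02 (limma adjusted p = 0.249) and -1.88 after the GC correction (limma adjusted p = 0.0768), past the threshold in neither.

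Within each library, the log2 ratio of *Ampd3* to *Ampd1* was -7.42, -7.52, -7.15 and -6.93 in WT replicates 1 to 4 and -6.18, -5.84 and -5.49 in C2-/- replicates 1 to 3. The ratio was higher in all C2-/- libraries. The means were -7.25 ± 0.26 (SD, n = 4) and -5.84 ± 0.34 (SD, n = 3), a difference of 1.42 or 2.67-fold (exact permutation p = 0.02857, again the smallest possible, and 0.0429 after Benjamini-Hochberg adjustment over 3 ratios). After the GC correction the difference was 2.19 with the same exact permutation p, and against WT replicate 4 alone it was 1.09. The scarce isoform remained far below the abundant one in both groups.

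*Adssl1*, which joins IMP and aspartate in the return branch of the cycle, lies on the plus strand at chr12:112620047-112641355. It was 9.85, 9.84, 9.97 and 9.74 in WT replicates 1 to 4 and 9.56, 9.58 and 10.27 in C2-/- replicates 1 to 3. C2-/- replicate 3 was above all WT libraries, and the other two C2-/- libraries were below them. The change was -0.05 (SE 0.20, limma adjusted p = 0.857), with a 95% interval from -0.49 to 0.39. After the GC correction it was 1.08 (SE 0.22, limma adjusted p = 0.00941) and past the threshold as higher, so the direction of *Adssl1* depended on that setting. It was 0.11 with median centring, not past the threshold.

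**Figure D4:**
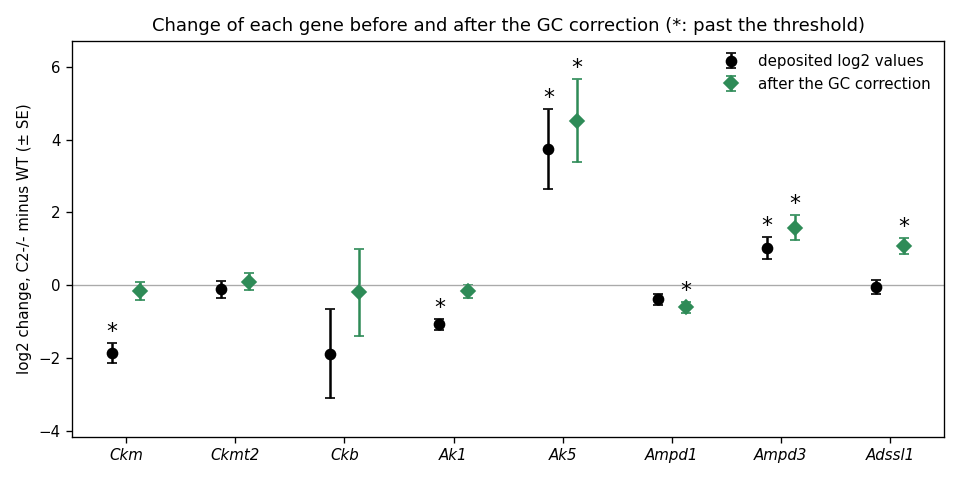
log2 change of each gene, C2-/- minus WT, with its SE, from the deposited values (black circles) and after the GC correction (green diamonds), and asterisks mark changes past the threshold. *Ckm* and *Ak1* move to -0.17 with the correction (*Ckm* to -1.02 with its untrimmed transcript, not drawn), *Adssl1* moves from -0.05 to 1.08, and *Ak5* and *Ampd3* are higher in both.

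The other genes of these pathways were read from 7 lists that hold 49 genes, of which 41 were measured. In all, 11 were past the threshold as higher, 12 as lower and 18 were not past it, against 20.2% and 25% of all genes. After the GC correction 3 were higher and 4 lower, against 11.9% and 8.18% of all genes. Among genes of creatine synthesis and transport, all 3 measured were past the threshold, against 45.2% of all genes. *Gatm*, which makes the creatine precursor guanidinoacetate, was higher in C2-/- by 1.90 (limma adjusted p = 0.00239) and remained so after the GC correction (1.11, limma adjusted p = 0.047). *Gamt*, which methylates that precursor to creatine, had a change of -2.24 (limma adjusted p = 0.0016). *Slc6a8*, the creatine transporter of the cell membrane, had a change of -1.40 (limma adjusted p = 0.000531). The changes of *Gamt* and *Slc6a8* became -0.59 and -0.11 after the GC correction and were no longer past the threshold.

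In the rest of the purine nucleotide cycle, *Adsl*, the adenylosuccinate lyase, had a change of -0.82 (limma adjusted p = 0.00323) and -0.90 after the GC correction (limma adjusted p = 0.0055), past the threshold in both. *Ampd2*, the liver-type AMP deaminase, changed by -1.69 (limma adjusted p = 0.0313) although its groups overlapped, and *Adss*, the non-muscle adenylosuccinate synthetase, by 1.30 (limma adjusted p = 0.0134). After the GC correction neither *Ampd2* (-0.38) nor *Adss* (0.50) was past the threshold.

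Of 11 genes of AMP and adenosine breakdown and salvage, 2 rose and 2 fell, against 20.2% and 25% of all genes. *Hprt*, which salvages hypoxanthine and guanine, changed by 1.27. The nucleotidase *Nt5c3*, whose action on AMP was not examined here, changed by 0.63. *Aprt*, which salvages adenine, changed by -2.72 and *Xdh*, which makes uric acid, by -1.58. None of the 11 was past the threshold after the GC correction, where 11.9% of all genes were higher and 8.18% lower. Of 5 nucleoside diphosphate kinase genes, which pass phosphate between nucleotides, 1 rose and 2 fell, against 20.2% and 25% of all genes. *Nme7* rose by 2.88 and *Nme6* and *Nme2* changed by -3.32 and -0.96. *Nme7* (2.39) and *Nme6* (-2.51) were past the threshold after the correction too, while *Nme2* (0.25) was not.

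Of 10 genes of de novo purine synthesis, 3 rose and 3 fell, against 20.2% and 25% of all genes. Those that rose were *Prps1* (0.71), *Gmps* (0.65) and *Ppat* (0.64), and those that fell were *Impdh1* (-2.62), *Gart* (-1.32) and *Impdh2* (-1.22). *Gart* (-0.71) alone of these was past the threshold after the GC correction. Of 5 genes that move adenine nucleotides across the mitochondrial membranes, 3 rose and none fell (20.2% and 25% of all genes), and after the GC correction 1 was higher and 1 lower (11.9% and 8.18%). *Slc25a4*, the ADP/ATP carrier of muscle, changed by 0.72 (limma adjusted p = 0.0364) and by 1.04 after the correction (limma adjusted p = 0.0255). *Slc25a5* (0.94) and the outer-membrane channel *Vdac2* (0.75) were past the threshold only without the correction. *Vdac3*, named here after its values were seen, changed by -0.43 and was past the threshold as lower only after the correction (-1.08). *Slc25a5* and *Nme2* have near-identical processed pseudogenes, so the assignment of reads to them is uncertain. WT replicate 4 (12.63) was near the lowest C2-/- library (12.67) in *Slc25a4*.

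**Figure D5:**
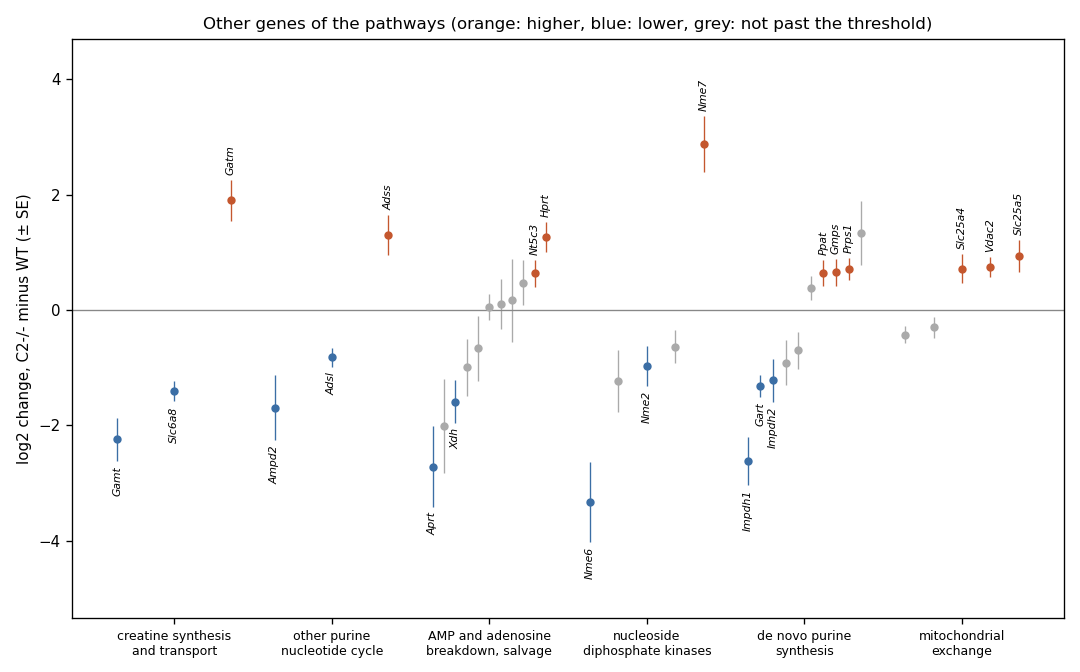
log2 change of other genes of 6 of the pathway lists, C2-/- minus WT, with its SE, grouped by list. Orange points are higher, blue points lower and grey points not past the threshold. Points of both colours occur, and changes run from -3.32 in *Nme6* to 2.88 in *Nme7*.

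The tissue label was read from 10 skeletal muscle fibre markers, all measured and none of them among the 8 genes. Their summed level was 158450 to 186950 CPM in WT and 126340 to 135100 in C2-/-, and all 10 had reads in every library. Past the threshold were 1 marker as higher and 3 as lower in C2-/-, against 20.2% and 25% of all genes. The counts of the lists that follow stand beside the same shares of all genes. All 5 fibroblast markers were higher in C2-/-, with a summed level of 440 to 712 CPM in WT and 1633 to 2030 in C2-/-. Of 5 macrophage markers 2 were higher (18.9 to 36.4 CPM against 46.8 to 68.5), and of 5 endothelial markers 1 was higher (299 to 425 against 276 to 361). Of 5 smooth muscle markers 2 were lower (161 to 300 CPM against 147 to 206), and of 4 Schwann cell and nerve markers 1 was lower (53.7 to 122 against 63.7 to 93.6). The 2 adipocyte markers measured were not past the threshold (0.13 to 3.87 CPM against 1.72 to 11.2). *Alas2*, the only red blood cell marker measured, was lower (4.10 to 5.15 CPM against 1.03 to 2.06), and the haemoglobin genes were not analysed here. With the GC correction, 11.9% of all genes were higher and 8.18% lower. No muscle fibre marker was past the threshold with it, and the median change of that list moved from -0.44 to 0.34. Fibroblast markers then had 3 of 5 higher (median change 1.45 before and 1.13 after) and macrophage markers 1 of 5. No endothelial or Schwann cell and nerve marker was past the threshold then, nor was *Alas2*, while 1 smooth muscle and 1 adipocyte marker were higher. No measured marker of these lists was at 0 reads in any library. The part of these cell types in the changes of the 8 genes was not tested, and in whole muscle a smaller share of a cell type and less RNA per cell cannot be told apart.

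The genes most like each of the 8 across the 7 libraries were named as a description, by Pearson's r of log2 CPM among the 7810 other genes whose mean log2 value reached 3. *Ckm* was most like *Nbas* (0.999) and *Pcx* (0.998), and 642 genes had an r above 0.95 with it. *Ak1* was most like *Ndufa7* and *Mlec* (both 0.995), with 326 genes above 0.95. *Ampd3* was most like *Snapc5* (0.996) and *Rpl21* (0.995), with 376. *Ak5* was most like *Igf1* (0.991) and *Rasgrp3* (0.990), with 33. The counts were small for *Ckb* (*Vipas39* 0.982, *2310022B05Rik* 0.978, 17 genes), *Adssl1* (*Ptrh2* 0.974, *Med17* 0.968, 7 genes) and *Ampd1* (*Atf4* 0.971, 5 genes). *Ckmt2* had no gene above 0.95, with *Fam96b* (0.895) and *Mrpl57* (0.891) the nearest. The 7 points share 2 genotypes, unequal depth and the GC pattern described above.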

How the data were processed

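RNA-seq of TA muscle from 4 WT and 3 C2-/- mice was analysed. Per the labels and the study's methods, the authors discarded low-quality reads, mapped the clean reads with HISAT (GRCm38.p6), counted them per gene with featureCounts 1.5.2 and applied edgeR's TMM scaling. The authors deposited log2 values for 12239 genes, 1 column per library. A second deposited table held their own limma/voom comparison and was not used. The filter on genes, whether multiply mapped reads were counted, and strand use, are not given in the sources used here.

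Undoing the log2 and an offset of 0.5 reads per 1e+06 of the effective library size returned whole reads for 100% of values (within 0.01 reads). The main test was limma 3.58.1 in R 4.3.3 (lmFit, eBayes with trend), two-sided, on the log2 values of all 7 libraries with genotype as the only term and Benjamini-Hochberg adjustment over 12239 genes. It was tested on simulated data first. Ratios within libraries were compared by an exact permutation test (NumPy 2.4.6). Transcript GC content and length came from GENCODE M21, for 12178 genes (99.5%), with 360 matched by an older symbol. The transcript paired with RefSeq was preferred and trimmed to the RefSeq gene, which mattered for *Ckm*. The GC correction used a natural spline with 5 degrees of freedom per library. Promoters of 6 of the 8 genes were in the RefSeq table.

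The genes named were the 8 members, every gene of the pathway lists past the threshold (up to 3 per direction and list), and the 2 genes most alike each member, except 2 genes that are not reported here. The members and lists were chosen with earlier results of these data known. Alternatives were voom on the recovered reads, median centring, quantile normalization, the GC correction, a mean log2 filter of 3, log2(CPM + 1), no trend, library quality weights, the replicate number as a block, an adjusted p under 0.01 and leaving out each library. Of the 49 genes on the pathway lists, 8 were not analysed here.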

Additional observations from a re-analysis of the deposited data

Results flagged for a closer look

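In the WT group, the only one with 4 libraries, 35 values were examined for a library whose gap to its nearest neighbour, as a share of the range, exceeded the 95% limit of Dixon's test. This singled out 3 values, where chance alone gives about 1.75, or 1 in 20.

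For *A930016O22Rik*, the antisense gene within *Ckm*, WT replicate 4 was 12.36 and the others were 13.12 to 13.25. *Ckm* itself was also lowest in that library (14.13 against 14.45 to 14.55). For *Slc6a8*, the creatine transporter, WT replicate 4 was 7.03 and the others were 7.54 to 7.63, and the C2-/- libraries were 5.98 to 6.08. For the log2 ratio of *Ckmt2* to *Ckm*, WT replicate 2 was -4.50 and the others were -3.72 to -3.65, since *Ckmt2* was lowest in that library. The cause of these values was not tested.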

How the results depend on the processing

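The changes of *Ckm* and *Ak1* kept their direction under all alternatives run, but both calls were lost with the GC correction, alone and together with the replicate block. With transcripts not trimmed to the RefSeq gene, an alternative chosen after seeing the data, *Ckm* kept its call (-1.02) and *Ak1* did not, *Ckmt2* and *Adssl1* were 0.113 and 1.10, the log2 ratio of *Ckb* to *Ckm* was 0.82, and 5 of the 8 genes, 9 pathway genes and 2470 genes in all were past the threshold. *Ckmt2* turned positive with median centring (0.052), the GC correction (0.10) and the replicate block with the GC correction (0.11), and ranged from -0.27 to 0.0763 with 1 library left out. *Adssl1* turned positive with the same settings (0.11, 1.08 and 1.14, the last with limma adjusted p = 0.0014) and ranged from -0.28 to 0.0733. *Ampd1* was past the threshold with quantile normalization and the GC correction, and *Ckb* with library quality weights, although its change ranged from -2.75 to -0.20 (without C2-/- replicate 3) with 1 library left out. Of the 8 genes, 2 to 4 were past the threshold with 1 library left out, the lowest without C2-/- replicate 3 (*Ckm* and *Ak1*), and 2 with an adjusted p under 0.01. Of the pathway genes, 23 were past it in the main test, 7 with the GC correction, 10 with the replicate block and GC correction, 11 with an adjusted p under 0.01, and 15 to 23 with 1 library left out (15 without WT replicate 1, 2 or 3). Of all genes, 5528 were past it, 2445 with the GC correction, 2895 with the replicate block and GC correction, and 3216 with an adjusted p under 0.01, and among those past it 44.7% were higher, 54.0% with median centring and 59.3% with the GC correction.

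The log2 ratio of *Ckb* to *Ckm* turned positive with log2(CPM + 1) (0.89) and quantile normalization (0.44) and ranged from -1.09 to 1.83 with 1 library left out. That of *Ckmt2* to *Ckm* was 0.27 with the GC correction and ranged from 1.48 to 1.96, and that of *Ampd3* to *Ampd1* from 1.24 to 1.59, where the exact permutation test could not pass its threshold. The titles share replicate numbers 1 to 3, but same-numbered libraries did not deviate together (r = -0.132, -0.0469 and -0.0834 over 7816 genes). None correlated best with its own number, so no pairing by number was seen. Such small r values, from deviations within groups of 3 libraries, cannot exclude one. In the replicate block WT replicate 4 has no partner and does not enter the change, so each log2 change equals that without that library. With that block, 4 of the 8 genes were again past the threshold, 23 pathway genes and 5901 genes in all, and the ratio differences of *Ckmt2* to *Ckm* and *Ampd3* to *Ampd1* were 1.82 and 1.52 (exact p = 0.25, the smallest possible). Depth limits *Ckb* and *Ak5*, with 0 to 9 and 18 to 66 reads in the 4 shallow libraries, and the filter on a mean log2 value of 3 left out both, so it gave no value for them.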
